A study of Homo sapiens with 4 samples.

Results

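The BCL2 family of apoptosis regulators was followed here through 10 transcripts, taken by gene symbol with earlier results of these data known, of the 14431 genes in the expression table. Pro-survival members were BCL2, BCL2L1 (BCL-XL), MCL1 and BCL2L2 (BCL-w). Pro-death members were BAK1, BID, BAD, BCL2L11 (BIM), PMAIP1 (NOXA) and BMF. All 10 passed the filter on low values, an average of 1 CPM or more in either group, as did 14199 genes in all. CPM gives the reads of a gene relative to the whole library.

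RNA was sequenced from HGC27, a human gastric cancer cell line, in 2 control libraries (genotype WT) and 2 libraries of cells treated with siRNA against AARS1 (siAARS1, genotype AARS1 knockdown). All 4 libraries came from cells in glucose-free DMEM with 25 mM lactate, for 24 h according to the labels, and the text of the study gives another duration. No library without lactate was analysed here. AARS1, the alanyl-tRNA synthetase, is studied as an enzyme that puts lactyl groups on YAP and TEAD, and the comparison asked which transcripts differed when it was knocked down. The labels do not say whether the 2 libraries of a group came from separate cultures, so p-values measure the spread between these libraries, which may be technical.

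Proteins of the BCL2 family decide whether the outer membrane of the mitochondrion stays intact. BAK1 and its relative BAX open pores in that membrane, which releases cytochrome c and starts the caspases. Pro-survival members hold these effectors and the activators in check, each through a groove that takes up a short helix called the BH3 segment. BH3-only proteins such as BMF, BAD, BIM, NOXA and BID use this segment to occupy the groove or to activate the effectors, and each binds its own choice of pro-survival partners. Much of this control lies in protein turnover, cleavage and phosphorylation, which RNA levels do not show.

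The coding bases of the BH3 core are shown for all 10 members, because this segment is the part that the opposing sides of the family share. They come from GENCODE v29 transcripts on GRCh38, each within 1 exon, 24 bases long and read 5′ to 3′ on the strand of the gene. Capitals mark the codon at the place of the conserved leucine, then the codon of a small residue and the aspartate codon that end the core of 6 codons.
BCL2: accCTCcgccaggccGGCGACgac, chr18:63318358-63318381, minus strand
BCL2L1: gcgCTGagggaggcaGGCGACgag, chr20:31721931-31721954, minus strand
MCL1: accTTAcgacgggttGGGGATggc, chr1:150578874-150578897, minus strand
BCL2L2: gccATGcgggcagctGGAGATgag, chr14:23307900-23307923, plus strand
BAK1: cagCTCgccatcatcGGGGACgac, chr6:33575396-33575419, minus strand
BID: cacCTCgcccaggtcGGGGACagc, chr22:17739424-17739447, minus strand
BAD: gagCTCcggaggatgAGTGACgag, chr11:64271631-64271654, minus strand
BCL2L11: gagTTGcggcgtattGGAGACgag, chr2:111150100-111150123, plus strand
PMAIP1: caaCTCaggagatttGGAGACaaa, chr18:59902670-59902693, plus strand
BMF: aagCTTcagtgcattGCAGACcag, chr15:40104204-40104227, minus strand

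In 8 of the 10 cores the small residue was a glycine codon, and the exceptions were BAD (AGT, serine) and BMF (GCA, alanine). BCL2L2 had ATG, methionine, in place of a leucine codon. Aspartate was written GAC in 8 cores and GAT in 2, those of MCL1 and BCL2L2. Over the 18 bases of the core, the pairs with the most identical bases were BAK1 with BID and BCL2 with BID (14 of 18), and the pair with the fewest was BCL2L2 with BAK1 (5 of 18). BID held 2 stretches that met the search, and the one with the glycine codon is printed.

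Depth was 30653210 to 33522573 reads in the genes listed, so 1 read equalled 0.0293 to 0.0324 CPM, and the least covered member value was 211 reads. AARS1 (listed as AARS) stood at 428 and 417 CPM in the controls and at 292 and 298 CPM after knockdown, 69.7% of control. Its log2 fold change, siAARS1 minus control on log2(CPM + 1) as everywhere below, was -0.52 (SE 0.0357, limma adjusted p = 2.52e-11). Of the epithelial markers, 3 of 6 were listed (KRT8, CLDN4 and CDH1), with a summed level of 30.6 to 30.8 CPM in control and 8.00 to 9.36 CPM in siAARS1, while EPCAM, KRT18 and KRT19 were not listed. None of 6 gastric mucosa markers was listed. Mesenchymal markers (3 of 4 listed, led by VIM) summed to 5150 to 5209 CPM in control and 4704 to 4814 CPM in siAARS1. Within them ZEB1, a transcription factor that represses epithelial genes, went the other way, from 6.16 and 6.84 CPM to 50.03 and 52.31 CPM (log2 fold change 2.80, limma adjusted p = 6.48e-18). Of blood, vessel and stroma markers 2 of 6 were listed (COL1A1 and DCN), summing to 2559 to 2649 and 1812 to 1902 CPM, and PTPRC, CD3E, PECAM1 and VWF were not. The lower sum came from COL1A1, whereas DCN was higher (239 and 250 CPM to 258 and 270 CPM, log2 fold change 0.11, limma adjusted p = 0.0155). The part of these shifts in the results below was not tested, and in bulk RNA fewer cells of a kind and less RNA per cell cannot be told apart.

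Of the 10 members 5 were past the threshold (limma adjusted p under 0.05), where 70.7% of all genes tested were, and all 5 were lower in siAARS1: BMF, BAD, BCL2L1, BAK1 and BID. They comprised 4 of 6 pro-death members and 1 of 4 pro-survival members, against 38.0% of all genes called lower and 32.6% called higher. No member was called higher in limma, also at an unadjusted p under 0.05, while edgeR and DESeq2 on the reads recovered from the CPM each called 1 member higher, MCL1. For edgeR (5 members lower) 69.1% of all genes were called, 34.3% lower and 34.7% higher, and for DESeq2 (3 members lower) 58.8%, with 27.2% lower and 31.7% higher. On the log2 scale the median difference was 0.07 over the pro-survival members, -0.19 over the pro-death members and -0.05 over all genes. In 7 of the 10 the groups did not overlap (5 lower, 2 higher), where 85.1% of all genes did not overlap, 46.6% lower and 38.5% higher.

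**Figure D1:**
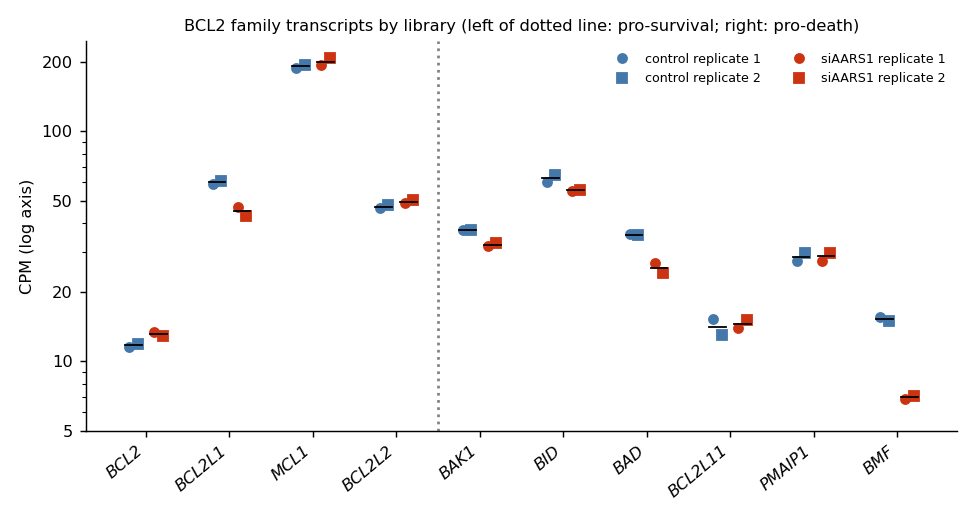
CPM of each member on a log axis, with circles for replicate 1 and squares for replicate 2 of each group and a bar at each group mean (n = 2). BMF shows the widest gap, from 15.0 to 15.5 CPM in control down to 6.83 to 7.10 CPM in siAARS1, while the points of MCL1, BCL2L11 and PMAIP1 overlap between groups.

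BMF, a BH3-only protein held on the cytoskeleton and released by stress or loss of attachment, fell by more than any other member. BMF (ENSG00000104081; chromosome 15, 40087890 to 40108892, GENCODE v29 on GRCh38 as for all members) stood at 15.5 and 15.0 CPM in the controls and at 6.83 and 7.10 CPM after knockdown, from 529, 476, 211 and 236 reads. Both siAARS1 libraries lay far below both controls. Mean levels of 15.3 ± 0.361 and 6.97 ± 0.189 CPM (SD, n = 2) made the siAARS1 level 2.19-fold lower, or 45.7% of control. By limma the log2 fold change was -1.03 (SE 0.0968, 95% interval -1.23 to -0.83, adjusted p = 4.62e-09), and 1.46% of all genes tested were as low. The call and its direction held under all 16 alternative settings, between -1.23 and -0.77, though several of these cannot change the fold change.

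BAD, the BH3-only protein that growth factor signalling holds inactive by phosphorylation, was lower as well. BAD (ENSG00000002330; chromosome 11, 64269830 to 64284704) stood at 35.8 and 35.3 CPM in the controls and at 26.8 and 24.1 CPM after knockdown, with 802 to 1222 reads a library. Control and siAARS1 libraries did not overlap, and the siAARS1 mean was 71.6% of control (35.6 ± 0.357 to 25.5 ± 1.92 CPM, SD, n = 2). Its log2 fold change was -0.47 (SE 0.0675, 95% interval -0.61 to -0.33, limma adjusted p = 2.72e-06), and 14.1% of all genes were as low. Exons of BAD overlap those of GPR137 on the opposite strand, which was also lower (48.2 ± 0.250 to 38.1 ± 2.27 CPM), and the use of strand is not given in the sources used here, so reads of the pair could be split between them.

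The effector BAK1 and the activator BID, which caspase cleavage turns on, showed smaller differences. BAK1 (ENSG00000030110; chromosome 6, 33572547 to 33580293) stood at 37.1 and 37.4 CPM in the controls and at 31.8 and 32.5 CPM after knockdown, 86.4% of control. BID (ENSG00000015475; chromosome 22, 17734138 to 17774770) stood at 60.4 and 64.6 CPM in the controls and at 55.3 and 55.5 CPM after knockdown, 88.6% of control. For both genes the siAARS1 libraries lay below both controls. In limma BAK1 was at -0.21 on the log2 scale (SE 0.0602, adjusted p = 0.00458) and BID at -0.17 (SE 0.0519, adjusted p = 0.00606). Neither call held in every setting. Without control replicate 2, the higher of the controls, BID was at -0.12 (limma adjusted p = 0.128). DESeq2 called neither, with -0.16 for BAK1 (adjusted p = 0.114) and -0.12 for BID (adjusted p = 0.141), and the sequence corrections described below turned BAK1 to 0.07 and 0.08 and gave -0.07 and 0.08 for BID.

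BIM and NOXA, BH3-only proteins that are often set by transcription in stressed cells, gave no difference beyond the spread between libraries on the deposited scale. BCL2L11 (ENSG00000153094; chromosome 2, 111119378 to 111168447) stood at 15.2 and 13.0 CPM in the controls and at 14.0 and 15.1 CPM after knockdown. PMAIP1 (ENSG00000141682; chromosome 18, 59899948 to 59904306) stood at 27.3 and 29.5 CPM in the controls and at 27.4 and 29.7 CPM after knockdown. In both genes the groups overlapped. The log2 fold change of BCL2L11 was 0.04 (limma adjusted p = 0.693). Its 95% interval of -0.15 to 0.24 holds the differences that these libraries leave possible. The log2 fold change of PMAIP1 was 0.01 with a 95% interval of -0.13 to 0.15 (limma adjusted p = 0.906). The sign of BCL2L11 turned without control replicate 2 (-0.06) or siAARS1 replicate 2 (-0.01), and that of PMAIP1 without control replicate 1 (-0.04) or siAARS1 replicate 2 (-0.05). Under quantile normalization BCL2L11 was at -0.21, not past the threshold (limma adjusted p = 0.0532). The sequence corrections described below put BCL2L11 at 0.08 and 0.20, the latter called higher (limma adjusted p = 0.0391). PMAIP1 was called lower under quantile normalization (-0.19, limma adjusted p = 0.0203). It was also called lower after those corrections, at -0.68 (limma adjusted p = 9.39e-09) and -0.22 (limma adjusted p = 0.00394). Exons of BCL2L11 also overlap those of a noncoding RNA on the opposite strand, listed as MIR4435-1HG at 3.70 to 6.22 CPM.

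Among the pro-survival members BCL2L1 was the one called. BCL2L1 encodes BCL-XL, which restrains BAK1, BAX and most BH3-only proteins. It (ENSG00000171552; chromosome 20, 31664452 to 31723989) stood at 59.0 and 60.9 CPM in the controls and at 47.0 and 43.0 CPM after knockdown, from 1429 to 2011 reads. The siAARS1 libraries were both lower, and the mean fell to 75.0% of control (60.0 ± 1.38 to 45.0 ± 2.83 CPM, SD, n = 2). Limma gave it -0.41 on the log2 scale (SE 0.0558, 95% interval -0.52 to -0.29, adjusted p = 1.34e-06), and 17.5% of all genes were as low. The call and its direction held in all 16 alternatives, between -0.53 and -0.14, though several of these cannot change the fold change. The files give 1 value per gene, so the long form of BCL2L1 and its short, pro-death splice form were not separated.

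MCL1, a short-lived protein that binds NOXA, BIM and BAK1, was close to its control level. MCL1 (ENSG00000143384; chromosome 1, 150574551 to 150579738) stood at 189 and 194 CPM in the controls and at 194 and 207 CPM after knockdown, from 6004 to 6898 reads. The lower siAARS1 library fell within the control range, and the other lay above it. Its log2 fold change was 0.07 (SE 0.0408, 95% interval -0.02 to 0.15, limma adjusted p = 0.151). Without siAARS1 replicate 1 it was 0.11 and past the threshold (limma adjusted p = 0.0336). On the recovered reads it was also past the threshold, at 0.11 in edgeR (adjusted p = 0.0326) and 0.12 in DESeq2 (adjusted p = 0.0293). The sequence corrections described below called it in opposite directions, at -0.21 (limma adjusted p = 1.05e-05) and 0.15 (limma adjusted p = 0.000255).

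BCL2 and BCL2L2 had both siAARS1 libraries above both controls, by less than the test could call. BCL2, the founding member of the family, (ENSG00000171791; chromosome 18, 63123346 to 63320128) stood at 11.6 and 11.9 CPM in the controls and at 13.4 and 12.9 CPM after knockdown, or 0.15 on the log2 scale (95% interval -0.04 to 0.34, limma adjusted p = 0.138). BCL2L2 (ENSG00000129473; chromosome 14, 23298790 to 23311759), whose protein BCL-w acts much like BCL-XL, stood at 46.4 and 47.7 CPM in the controls and at 48.7 and 50.1 CPM after knockdown, or 0.07 on the log2 scale (95% interval -0.04 to 0.18, limma adjusted p = 0.255). BCL2 came from 377 to 429 reads a library and BCL2L2 from 1504 to 1665. BCL2L2 shares exons with the readthrough gene BCL2L2-PABPN1 (1.68 to 4.08 CPM) and overlaps exons of PPP1R3E on the opposite strand (14.8 ± 0.134 to 20.5 ± 0.938 CPM, called higher), so its value is uncertain where reads could be split.

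**Figure D2:**
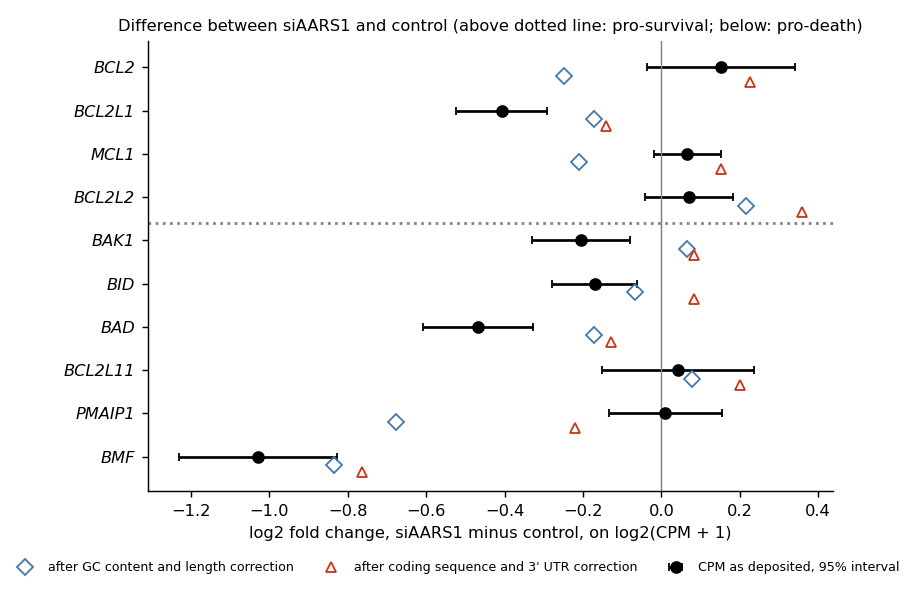
Log2 fold change of each member, siAARS1 minus control, with black points and bars for the deposited CPM and its 95% interval, diamonds after a correction for transcript GC content and length, and triangles after one for the coding sequence and 3' UTR. BMF, BCL2L1 and BAD lie left of 0 in all 3. BCL2, MCL1, BAK1, BID and PMAIP1 cross 0 with a correction, and the corrected values of PMAIP1 reach -0.68.

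Set side by side, the summed CPM of the pro-survival members overlapped between the groups, at 306 and 315 in control and 304 and 313 in siAARS1 libraries. MCL1 made up 61.8% of this sum in control, and without it the sums were 117 and 120 in control and 109 and 106 in siAARS1 libraries, which did not overlap. For the pro-death members the sums were 191 and 195 in control and 162 and 164 in siAARS1 libraries, which did not overlap. The mean log2(CPM + 1) of the pro-death members minus that of the pro-survival members was -0.79 and -0.84 in control and -1.11 and -1.07 in siAARS1 libraries. This balance was thus lower by 0.27 on the log2 scale (-0.82 ± 0.0357 to -1.09 ± 0.0256, SD, n = 2), towards the pro-survival side. BMF carried more than any other member of this shift, and without BMF, a version chosen after seeing the data, it was -0.13 (-0.65 ± 0.0308 to -0.78 ± 0.0224, SD, n = 2). It is a description without a test, since 2 against 2 libraries cannot go below p = 0.333 in a two-sided exact permutation test and the members were chosen with results known. The balance was negative in this sense in every alternative, but several of them cannot change it. Median scaling, no filter, the stricter threshold, the replicate block and a smaller gene set without correction leave it at -0.27 by construction. With all members kept, the settings that can change it gave -0.33 (quantile normalization) to -0.16. The latter followed a correction for transcript GC content and length, described below, and adding the replicate block to that correction cannot change it either. After that correction the medians stood in the opposite order to this balance of means, at -0.19 over the pro-survival and -0.12 over the pro-death members. BMF was then at -0.84, and the balance without BMF was worked out on the deposited scale only.

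Ratios of partners within a library showed where the sides moved apart and where they moved together on the deposited scale. BCL2L1 over BMF was 3.80 and 4.06 in control and 6.88 and 6.05 in siAARS1 libraries. This was the widest shift of 6 ratios examined, and the only ratio of them that includes BMF, the member with the largest fall. BCL2L1 over BAD differed little, with 1.65 and 1.72 against 1.75 and 1.78, both transcripts being lower by similar amounts. BCL2L1 over BAK1 went the other way, from 1.59 and 1.63 to 1.48 and 1.32. MCL1 over BCL2L1, both of them restrainers of BAK1, was 3.21 and 3.19 in control and 4.14 and 4.83 in siAARS1 libraries. MCL1 over PMAIP1 (6.93 and 6.60 to 7.09 and 6.98) and BCL2 over BCL2L11 (0.761 and 0.913 to 0.958 and 0.855) were nearly level, and the latter overlapped between groups. These are ratios of deposited CPM, not of molecules, so only their difference between groups is read. The partners differ in GC content, and the sequence corrections described below change some pairs. After the one for transcript GC content and length, MCL1 (-0.21) and BCL2L1 (-0.17) were lower by similar amounts. PMAIP1 (-0.68) was then lower by more than MCL1, and BMF (-0.84) by more than BCL2L1. After the one for the coding sequence and 3' UTR, MCL1 was at 0.15, BCL2L1 at -0.14, PMAIP1 at -0.22 and BMF at -0.77.

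Per kilobase of transcript the order in control was MCL1 (48.8 CPM per kb), BAD (30.8), BID (25.0), BCL2L1 (23.0), BAK1 (17.4), PMAIP1 (14.6), BCL2L2 (13.0), BCL2L11 (9.28), BMF (3.26) and BCL2 (1.57). No neighbours in this order overlapped between the control libraries, although it rests on 1 transcript length a gene. In siAARS1 libraries BAD (22.0 CPM per kb) and BID (22.2) stood level, their library values overlapping, and BMF at 1.49 lay below BCL2 at 1.76. BMF and BCL2 were thus the least abundant of the 10 in both groups, and the largest relative difference fell on a transcript of low level.

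Fold changes in these libraries followed the GC content of the transcript. Across 13819 genes the rank correlation was -0.65 with GC content and 0.30 with length, a description over genes that share the same 4 libraries. In the quintile of genes lowest in GC content (27.8% to 41.5%) the median was 0.77, and in the highest (59.1% to 75.6%) it was -0.30. The members spread over this range, from PMAIP1 at 37.2% to BAD at 66.3%. PMAIP1 was level in a quintile whose median was 0.77. BCL2 (45.6%) and MCL1 (45.1%) belonged to a quintile with a median of 0.21, and both lay below it. BID (49.7%), BCL2L11 (47.9%) and BCL2L2 (52.3%) belonged to one with a median of -0.12, with BID below it and the other two above 0. BMF (54.8%), BCL2L1 (56.9%) and BAK1 (58.8%) belonged to a quintile with a median of -0.24.

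**Figure D3:**
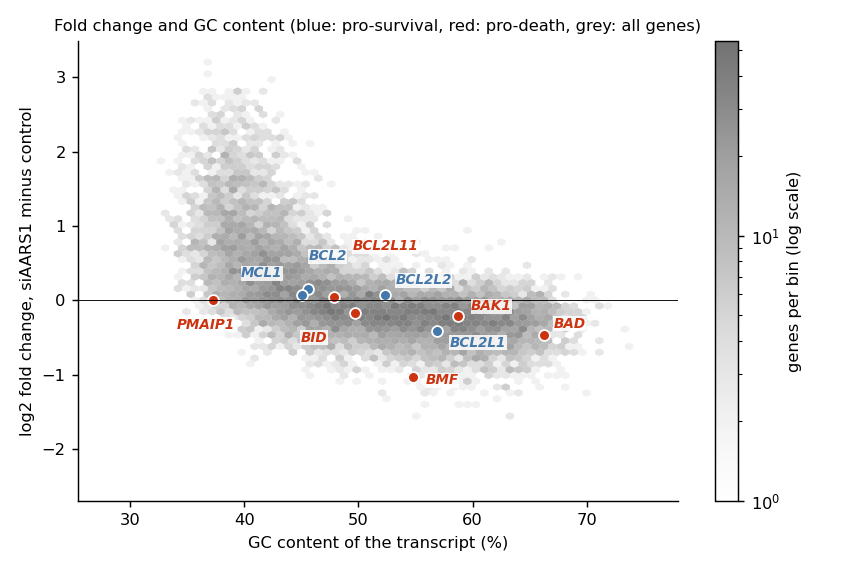
Log2 fold change against transcript GC content in percent, with grey hexagons for the number of genes (log scale), blue points for pro-survival and red points for pro-death members. BMF at -1.03 and PMAIP1 at 0.01 lie towards the lower edge of the genes with like GC content, and BAK1 and BAD lie inside the bulk.

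A pair of corrections took the smooth trend with such properties out of each library, together with any true change that follows them. The one for transcript GC content and length (the GC correction) called 7 of 10 members, 6 lower and 1 higher, where 66.1% of all genes were called, 37.7% lower and 28.4% higher. PMAIP1 was then lower at -0.68 (limma adjusted p = 9.39e-09), BCL2 at -0.25 (limma adjusted p = 0.0145) and MCL1 at -0.21 (limma adjusted p = 1.05e-05), and BCL2L2 was higher at 0.22 (limma adjusted p = 0.000493). BMF (-0.84), BCL2L1 (-0.17) and BAD (-0.17) stayed lower and past the threshold. BAK1 (0.07), BID (-0.07) and BCL2L11 (0.08) did not pass it.

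The other (the UTR correction) used the GC content and length of the coding sequence and of the 3' UTR. Its calls of BCL2 and MCL1 were opposite to those of the first. It called 3 members lower and 4 higher, where 66.0% of all genes were called, 39.1% lower and 27.0% higher. BCL2 was higher at 0.23 (limma adjusted p = 0.0219) and MCL1 at 0.15 (limma adjusted p = 0.000255), the reverse of the first correction. For BCL2 the coding sequence had 66.0% GC and the 3' UTR of 5279 bases 40.6%, and for MCL1 the values were 61.0% and 38.7%. PMAIP1, whose 3' UTR of 1553 bases had 31.4% GC, was lower after both corrections. A role of the 3' UTR in these differences was not tested. BCL2L2 (0.36) and BCL2L11 (0.20) were also called higher, and BMF (-0.77), BCL2L1 (-0.14) and PMAIP1 (-0.22) lower. BAD, at -0.13, just missed the threshold (limma adjusted p = 0.0590). The direction of BMF, BCL2L1 and BAD (lower) and of BCL2L2 and BCL2L11 (higher) was thus the same on all 3 scales, while that of BCL2, MCL1, BAK1, BID and PMAIP1 depended on the scale.

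Other genes of the pathway were read from 4 lists with 36 genes tested, of which 12 were called higher and 16 lower, where 32.6% of all genes were called higher and 38.0% lower (BCL2A1, BCL2L10, BCL2L14, BNIP3 and BIRC3 were not listed). The called share of 28 of 36 stood beside 70.7% of all genes, and each list below is read against the same shares. Among other BCL2 relatives 5 of 8 were lower and 1 higher, with a median log2 fold change of -0.27. BOK, an effector relative, fell from 12.6 ± 0.167 to 7.34 ± 0.632 CPM (log2 fold change -0.70, limma adjusted p = 2.92e-06), and stayed lower after the GC correction (-0.39). BCL2L13, a mitochondrial relative, was lower at -0.30 and at -0.16 after that correction. BNIP3L, a receptor for the removal of mitochondria, rose from 21.8 ± 0.285 to 30.4 ± 0.334 CPM (0.46), which the GC correction reversed to -0.47 and the UTR correction put at 0.10, not past the threshold. BAX, the effector that acts beside BAK1, was chosen after its values were seen: it stood at 62.6 and 61.2 CPM in the controls and at 51.0 and 53.6 CPM after knockdown, or -0.24 on the log2 scale (limma adjusted p = 0.000322), and was at 0.02 after the correction.

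Downstream of the mitochondrion, 7 of 13 apoptosome and caspase genes were called lower and 2 higher, with a median of -0.11. CYCS, cytochrome c itself, rose from 312 ± 11.0 to 458 ± 23.3 CPM (0.55). HTRA2, a protease released with cytochrome c, fell from 62.8 ± 0.860 to 41.2 ± 0.271 CPM (-0.60), and CASP9, the caspase of the apoptosome, from 11.2 ± 0.417 to 8.10 ± 0.284 CPM (-0.42). After the GC correction CYCS was reversed, at -0.19, and HTRA2 was at -0.30. After the UTR correction CYCS (0.51) and HTRA2 (-0.33) kept their calls. CASP9 was at -0.22 and -0.21 after the corrections, just under the threshold in both (limma adjusted p = 0.0499 in each).

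Inhibitors of caspases had the highest median of the 4 lists on the deposited scale, 0.94, with 4 of 5 called higher and 1 lower. After the GC correction the median was -0.08, with 1 higher and 2 lower, and after the UTR correction 0.07, with 1 higher and 1 lower. BIRC6, a very large ubiquitin ligase that blocks caspases, rose from 10.8 ± 0.954 to 91.4 ± 0.218 CPM, or 2.97 on the log2 scale (limma adjusted p = 1.59e-19). Its call stayed higher after both corrections, at 1.75 and 0.62. XIAP (18.5 ± 0.470 to 36.6 ± 4.73 CPM, 0.94) and BIRC2 (9.33 ± 0.798 to 22.2 ± 2.15 CPM, 1.17) have transcripts of 39.0% and 38.0% GC. XIAP was at -0.47 after the GC correction and at -0.29 after the other, and BIRC2 was at 0.11 and 0.07 and no longer past the threshold. CFLAR, which keeps caspase-8 from being activated at death receptors and was named after its values were seen, was at 0.46. It turned to -0.55 after the GC correction (limma adjusted p = 0.000103). After the UTR correction CFLAR was at 0.11, not past the threshold (limma adjusted p = 0.352).

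Genes that handle MCL1 and BAK1 proteins split, with 5 of 10 higher, 3 lower and a median of 0.09. The GC correction turned this balance to 2 higher and 4 lower (median -0.02), and the UTR correction to 1 higher and 5 lower (median -0.07). USP9X, which removes ubiquitin from MCL1, rose from 19.9 ± 0.384 to 74.0 ± 1.59 CPM (1.84), and FBXW7, which marks MCL1 for destruction, from 4.51 ± 0.660 to 8.60 ± 0.390 CPM (0.80). DYNLL1, the dynein light chain that binds BIM, fell from 338 ± 10.8 to 264 ± 0.268 CPM (-0.36). The corrections gave 0.50 and -0.80 for USP9X, 0.06 and 0.11 for FBXW7, and -0.18 and -0.22 for DYNLL1, so of these only DYNLL1 kept its direction and its call in both. Over the 36 genes the GC correction left 4 called higher and 16 lower, where 28.4% of all genes were called higher and 37.7% lower. The UTR correction left 4 higher and 14 lower of the 35 genes it could use, where 27.0% of all genes were higher and 39.1% lower.

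**Figure D4:**
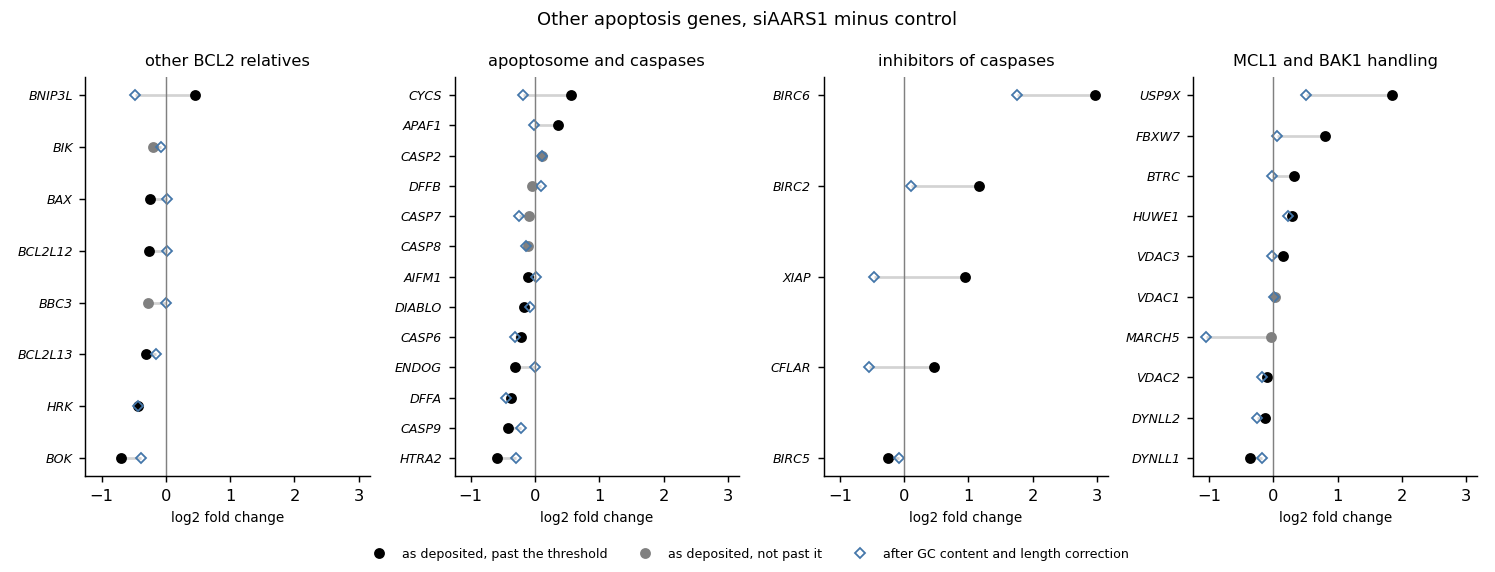
Log2 fold change, siAARS1 minus control, of the other apoptosis genes in 4 panels, black where past the threshold and grey where not, with open diamonds for values after the GC correction. Values on both sides move towards 0 after the correction, such as BIRC6 (2.97 to 1.75), USP9X (1.84 to 0.50), HTRA2 (-0.60 to -0.30) and BOK (-0.70 to -0.39), and some cross it, such as XIAP (0.94 to -0.47) and BAX (-0.24 to 0.02).

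Transcripts with profiles most like those of the members were found by the Euclidean distance over the 4 libraries among 11604 genes. For BMF, the member with the largest fall, they were HLA-E (142 and 140 to 68.7 and 69.6 CPM), UBE2L6 and MOB3C, with distances of 0.0297, 0.0338 and 0.0407, and 118 genes lay within 0.2. For BCL2, the member with the highest log2 fold change, they were FAM120B, TRIO and MTERFD2, with distances of 0.00463 to 0.0150, but 1483 genes lay within 0.2 of so flat a profile. In the promoters, 300-base RefSeq windows on GRCh38 from 250 bases before to 50 after the start, the TEAD letters GGAATG (or CATTCC on the other strand) were in 0 of 15 windows of the 8 members with a match and in 14.0% of 35116 windows of all genes. MCL1 and BCL2L2 had no matched window, so their promoters were not searched. The result says only that these letters are not in the windows searched for the other members.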

How the data were processed

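RNA-seq was measured in 2 control and 2 siAARS1 libraries of HGC27, grouped by sample titles. The authors deposited 1 table of CPM values for 14431 genes. The submitters' processing notes name hg38 and RSEM 1.3.3. The aligner, annotation and use of strand are not given in the sources used here, and multi-mapped or overlapping reads may have been split between genes. Exons of BMF, BCL2L1 and BAK1 overlap those of BMF-AS1, ABALON and GGNBP1, in this order, on the opposite strand. Exons of MCL1 overlap those of ADAMTSL4-AS1 on the same strand. None of these overlapping genes was listed, so a split of reads between them and the members could not be seen. CPM corrects for neither length nor GC content. All deposited CPM values were whole multiples of 1 read (100% within 0.001 CPM), which gave the read numbers. Library sizes behind the CPM were 0.749% to 1.89% above the sums over listed genes. A count of 3 reads equalled 0.0880 to 0.0971 CPM, and such limits cover counting error only.

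The members, lists and naming rule were chosen with earlier results of these data known. Genes named outside the members were AARS1, up to 3 per list with the largest change past the threshold and at least 5 CPM in the higher group, and the 3 most alike in profile. Genes were tested in R 4.3.3 with limma 3.58.1, using eBayes with its trend option, on log2(CPM + 1) and group as the only term. The 14199 genes that averaged 1 CPM or more in either group were tested, with Benjamini-Hochberg adjustment over all of them and a threshold of 0.05. A gene of the lists and a marker are not reported here and were left out of the counts. Fold changes on this scale understate low genes. Intervals are at 95% and SD is over 2 libraries. The chi-square statistic per gene between replicates was 3.63 (control) and 3.62 (siAARS1), above sampling noise, so neither pair was treated as a duplicate deposit.

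Transcripts, GC content and lengths came from GENCODE v29 (97.2% of identifiers matched), taking the principal, then the longest, transcript. Corrections with mgcv 1.9.3 removed the smooth trend of each library with GC content and length (13819 genes), or with those of the coding sequence and of a 3' UTR of at least 20 bases (12145 genes). Alternatives were a pseudocount of 0.1, no filter, median scaling, quantile normalization, a threshold of 0.01, the replicate number as a block, each library left out, edgeR 4.0.16 and DESeq2 1.42.0 on the recovered reads, and the corrections. BH3 cores were searched in the coding sequence, and promoters came from RefSeq (GRCh38.p14).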

Additional observations from a re-analysis of the deposited data

How the results depend on the processing

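Over 23 single genes and 16 alternatives, 317 of 368 values kept their direction and their side of the threshold, 24 changed the call only and 27 reversed. BMF and BCL2L1 kept both in all 16, and BAD in 15. Several alternatives cannot change a direction. No filter, the stricter threshold, the replicate block and the smaller gene set without correction leave every fold change as it was by construction. Adding the replicate block to the GC correction likewise repeats the fold changes of that correction. These counts therefore overstate how many separate checks were made. The number of members called stayed between 4 and 7. That of all genes ran from 8020 (of 12145 in the UTR correction) to 10760 (of 14199 under quantile normalization), so these counts come from different gene sets. With 2 libraries a group the spread is poorly known, and for the changes below the cause was not tested.

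Median scaling gave 1 member higher and medians of 0.12 (pro-survival) and -0.14 (pro-death). edgeR gave 1 higher, 0.11 and -0.15. DESeq2 gave 3 lower, 1 higher, 0.12 and -0.14. Quantile normalization gave medians of -0.085 and -0.33 and a balance of -0.33, and reversed BCL2 (-0.10), BCL2L2 (-0.068), BCL2L11 (-0.21) and PMAIP1 (-0.19, now called). The median over all genes was then -0.15, against -0.05.

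The GC content and length correction, with or without the replicate block, gave 1 member higher, medians of -0.19 and -0.12 and a balance of -0.16. It reversed BCL2 (-0.25), MCL1 (-0.21), BAK1 (0.066), PMAIP1 (-0.68), BNIP3L (-0.47), CYCS (-0.19) and XIAP (-0.47). The coding sequence and 3' UTR correction gave 3 members lower and 4 higher, 18 other apoptosis genes called and medians of 0.19 and -0.023. It reversed BAK1 (0.083), BID (0.083), PMAIP1 (-0.22), XIAP (-0.29) and USP9X (-0.80). On the same 12145 genes without a correction, an alternative chosen after seeing the data, 5 members were lower and 0 higher. With BMF left out of the pro-death members, also chosen after seeing the data, the balance was -0.13.

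Leaving out each library in turn gave 4 to 6 members called, 4 to 5 lower and 0 to 1 higher, a median of -0.21 to -0.16 over the pro-death and 0.035 to 0.10 over the pro-survival members, and a balance of -0.30 to -0.25. Across these fits BCL2L11 ran from -0.062 to 0.15 and PMAIP1 from -0.046 to 0.066.

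The groups share replicate numbers, but the labels do not say that these mark pairs, and deviations of same-numbered libraries correlated at 0.118 over 2 pairs. With the replicate block 10389 genes were called and the same number of members, 5 lower, and no member changed its call. The block in the GC-corrected fit took CASP9 from an adjusted p of 0.0499 to 0.0518 in limma.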
